A study of Mus musculus with 6 samples.

Results

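The genes described here copy the DNA of dividing cells and separate the copies in mitosis. They were taken from a list of 50 genes, and the members were all probe sets whose current or former gene symbol in the platform annotation was on it. A total of 49 of the 50 genes had such a probe set, with 112 probe sets among the 45037 non-control probe sets of the array. The remaining gene, the cyclin Ccnb1, was not analysed here. Of the 112 probe sets, 91 passed the filter on dim signal, and every one of the 49 genes kept at least 1 of them. The samples were 3 arrays of cerebellar and 3 of neocortical mouse astrocytes, and total RNA was hybridised as biotinylated aRNA. Strain ICR is labelled for the neocortical arrays and no strain for the cerebellar ones, so a difference of region and one of strain cannot be told apart. The labels state no age, sex, culture or passage, and not whether the 3 samples of a region came from separate preparations. The p-values therefore measure only how these samples varied, and that variation may be technical.

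Cells entering the division cycle first license their replication origins by loading the ring-shaped MCM helicase, then copy the DNA with clamp, clamp loader and polymerases, and later build a spindle that a checkpoint holds until every chromosome is attached. The CDK4 and CDK6 kinases act at the start of this sequence, where they help to release E2F factors that switch on replication genes. Genes of mitosis are switched on later, in part through promoter elements named CHR. Most mature astrocytes in the brain do not divide, whereas immature astrocytes and astrocytes in culture can.

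Each gene was represented by its brightest kept probe set, and values are quantile-normalized signal in arbitrary units. Differences are log2 cerebellar minus neocortical from limma, with Benjamini-Hochberg adjustment over all 27022 kept probe sets and a threshold of 0.05. Replication and mitosis genes gave signal in astrocytes of both regions, and few differed between regions. For 48 of the 49 members both group means lay above the highest value of 24 bacterial control probe sets, those named bio, cre and dap. Other controls were not used for this bound. Of the 49 members, 2 were higher in cerebellar astrocytes (Mcm6 and Cdk4) and 1 was lower (Cdk6), which is 4.08% and 2.04% of the members. Over all 12616 genes tested, 5.30% were higher and 7.36% were lower. The median log2 difference of the members was 0.02, beside -0.01 over all genes, with 27 members above 0 and 22 below. The median size of the difference, sign dropped, was 0.14 for the members and 0.23 for all genes.

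**Figure D1:**
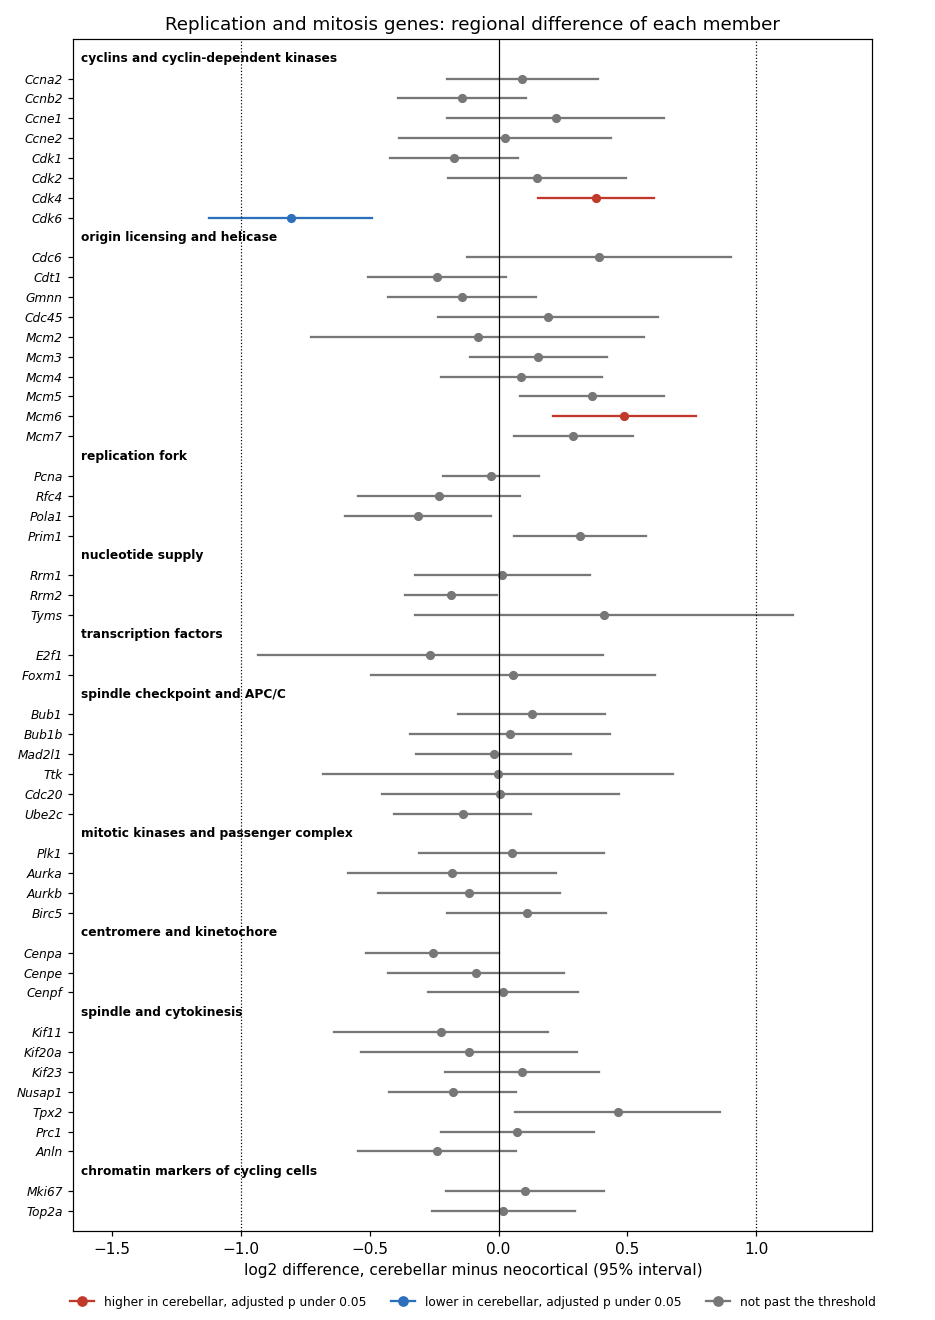
Log2 difference of each member, cerebellar minus neocortical, by its brightest kept probe set, grouped by role. Points are fitted differences and bars their 95% intervals (3 arrays per region), dotted lines mark a 2-fold difference either way, and 47 of the 49 intervals lie between them.

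A result that misses the threshold does not show that regions were alike, so the 95% intervals of the differences were read as bounds. On the brightest probe set, the interval excluded a 2-fold difference in either direction for 47 of the 49 members. That is 95.9% of the members, against 74.6% of all genes. For 33 members, or 67.3%, it also excluded a 1.5-fold difference, against 44.1% of all genes. The exceptions at 2-fold were Cdk6, whose interval reached -1.12, and Tyms (thymidylate synthase), whose interval ran from -0.33 to 1.14. Kept probe sets other than the brightest did not exclude a 2-fold difference for Cenpf, Foxm1, Cenpe, Cdc45, Anln, Kif23 and E2f1. The widest-reaching were 1 of Foxm1 (-2.28 to 0.60) and 1 of Cenpf (-1.995 to -0.58). The groups of arrays did not overlap for 7 members that were higher and 6 that were lower in cerebellar astrocytes, 14.3% and 12.2%, beside 16.0% and 18.3% of all genes. The members' replicate spread was small, with a median within-group SD of 0.16 on the log2 scale, against 0.19 over all genes. None of these comparisons with all genes was matched for brightness, on which spread and interval width can depend.

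**Figure D2:**
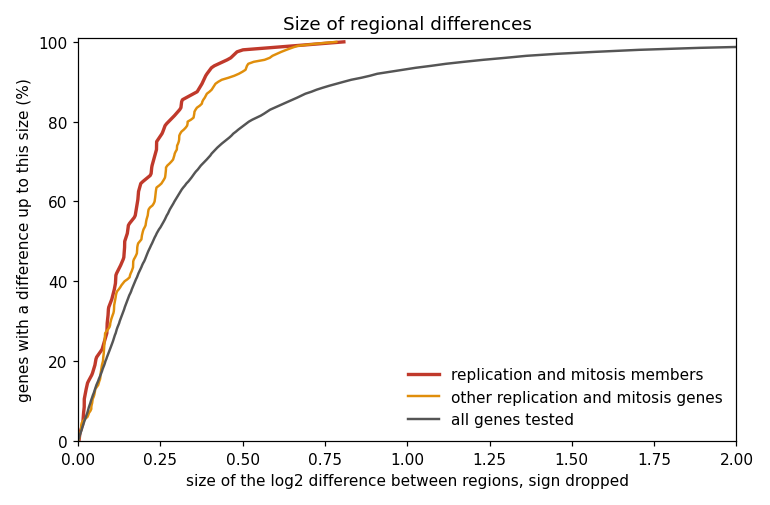
Share of genes (percent) whose log2 difference between regions, sign dropped, is up to the size on the horizontal axis. The members' curve lies left of that of all 12616 genes at the middle of the range, with medians of 0.14 and 0.23, and the 116 other replication and mitosis genes have a median of 0.19.

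Cdk6, one of the kinases that open the division cycle in answer to growth signals, had the largest difference among the members' brightest probe sets. Its signal was 5861, 4509 and 4113 on the cerebellar arrays, against 8966, 7665 and 8477 on the neocortical arrays. All cerebellar arrays lay below all neocortical ones. The cerebellar mean was 4828 ± 917 and the neocortical mean 8370 ± 657 (SD, n = 3 each), a log2 difference of -0.81 ± 0.14 (SE, limma adjusted p = 0.008), or 1.75-fold lower in cerebellar astrocytes. All 3 kept probe sets of Cdk6 passed in this direction, with log2 differences from -0.90 to -0.58. Its second probe set read 3107, 3209 and 3177 in cerebellar and 5184, 3922 and 5154 in neocortical astrocytes, and the third read 530.1, 450.4 and 385.7 against 966.8, 714.3 and 864.8. The groups did not overlap on any of the 3.

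Cdk4, the closely related kinase that binds the same D-type cyclins, moved the other way. It read 8927, 9349 and 7856 on the cerebellar arrays, against 6740, 6363 and 6978 on the neocortical arrays, again without overlap. The log2 difference was 0.38 ± 0.10 (SE, limma adjusted p = 0.0433), or 1.30-fold higher in cerebellar astrocytes. All 3 kept probe sets of Cdk4 were positive, at 0.21 to 0.38, but only the brightest passed, and that probe set carries a suffix for possible cross-hybridisation. The brightest probe sets of Ccne1, Mcm2, Mcm3, Mcm5, Mcm7, Rrm2, Cdc20 and Aurkb carry such a suffix too. So does the other Mcm7 probe set that passed. Departures from the group mean were weakly correlated between arrays of the same number. With the number as a replicate block in limma, Cdk4 did not pass (adjusted p = 0.0542), while Cdk6 (0.00328) and Mcm6 (0.024) did. With arrays scaled to a common median, which shifted the median of all genes to -0.14, Cdk4 stood at 0.17 (adjusted p = 0.511) and Cdk6 at -1.01 (adjusted p = 0.00456).

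**Figure D3:**
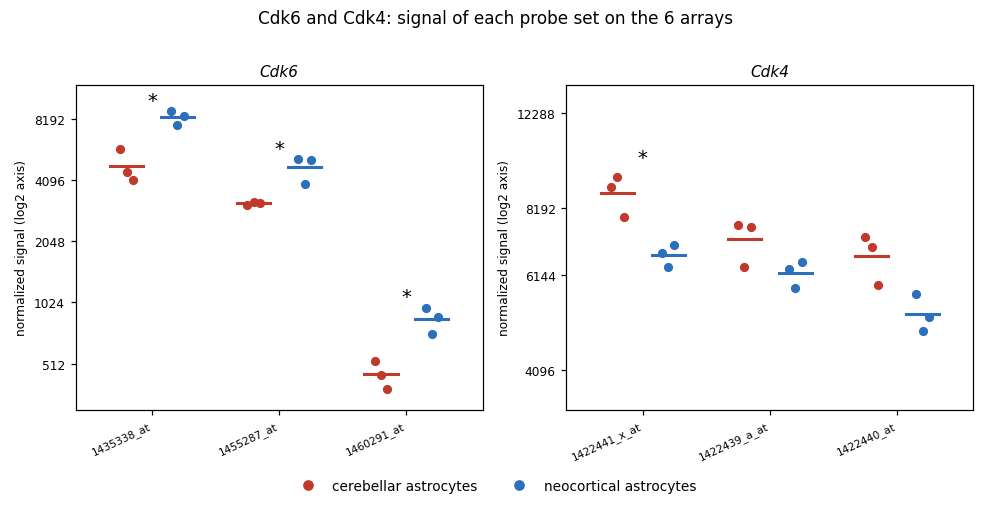
Signal of every kept probe set of Cdk6 (left panel) and Cdk4 (right panel) on each array, on a log2 axis. Points are arrays, with replicates 1 to 3 from left to right, lines are group means, and an asterisk marks an adjusted p under 0.05. All 3 Cdk6 probe sets are lower in cerebellar astrocytes, by 0.58 to 0.90 on the log2 scale, and all 3 Cdk4 probe sets have the higher mean there, by 0.21 to 0.38.

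Some markers of several cell types were also lower in cerebellar samples, and their part in the Cdk6 result was not tested. Of 5 measured markers of oligodendrocyte precursors, a dividing glial cell type, 2 were lower and none was higher in cerebellar samples, namely Olig2 (log2 difference -2.58) and Olig1 (-1.74). The summed signal of the 5 was 9782 to 16319 on cerebellar and 33420 to 37308 on neocortical arrays. Most of it was Olig1 alone, at 6659 to 12983 and 27813 to 30633. Pdgfra (-0.55), Cspg4 (0.16) and Sox10 (0.12), the other 3, did not pass. Of 7 measured neural progenitor markers, 4 were lower (Fabp7, Prom1, Dll1 and Hes5) and none passed as higher. The 7 summed to 102785 to 116742 against 140430 to 161592. Much of that was Fabp7 alone, at 51488 to 57806 against 76114 to 89617. Nes (0.285), Sox2 (-0.23) and Pax6 (-0.19) did not pass, and Nes was higher on every cerebellar array than on any neocortical one. Of 10 astrocyte markers, Aldoc (-0.80), Slc1a3 (-0.80) and Glul (-0.81) were also lower, Aqp4 (0.62) was higher and 6 did not pass. The endothelial Kdr (-1.56) and the neuronal Syt1 (-0.67) were lower too. The other kept endothelial marker, Cdh5 (0.01), and 3 kept neuronal markers did not pass. In bulk RNA, fewer cells of a type and less RNA per cell cannot be told apart.

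The promoters of the genes that passed are shown beside that of a mitosis gene, Ccnb2, which did not pass and was chosen for its promoter. Sequences are from RefSeq (GRCm38.p6), from 250 bases before to 50 after the annotated start, on the gene's own strand. They cover chr5:3343643-3343942 (plus strand) for Cdk6, chr10:127063285-127063584 (plus) for Cdk4, chr1:128359656-128359955 (minus) for Mcm6 and chr9:70421505-70421804 (minus) for Ccnb2. Capitals mark any E2F word (TTTCCCGC, TTTCGCGC, TTTGCCGC or TTTGGCGC), CHR word (TTTGAA or TTCGAA) or CCAAT box on either strand.
Cdk6: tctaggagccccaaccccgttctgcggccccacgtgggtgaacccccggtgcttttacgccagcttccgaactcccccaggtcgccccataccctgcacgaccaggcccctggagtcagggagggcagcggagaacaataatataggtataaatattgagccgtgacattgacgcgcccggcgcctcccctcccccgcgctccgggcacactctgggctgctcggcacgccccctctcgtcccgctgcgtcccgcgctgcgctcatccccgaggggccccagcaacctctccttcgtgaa
Cdk4: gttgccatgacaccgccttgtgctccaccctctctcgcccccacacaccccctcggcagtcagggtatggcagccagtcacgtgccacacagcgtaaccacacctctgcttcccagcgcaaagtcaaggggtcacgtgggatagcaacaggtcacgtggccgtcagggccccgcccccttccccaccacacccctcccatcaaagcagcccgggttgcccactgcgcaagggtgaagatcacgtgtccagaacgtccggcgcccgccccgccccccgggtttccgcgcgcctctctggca
Mcm6: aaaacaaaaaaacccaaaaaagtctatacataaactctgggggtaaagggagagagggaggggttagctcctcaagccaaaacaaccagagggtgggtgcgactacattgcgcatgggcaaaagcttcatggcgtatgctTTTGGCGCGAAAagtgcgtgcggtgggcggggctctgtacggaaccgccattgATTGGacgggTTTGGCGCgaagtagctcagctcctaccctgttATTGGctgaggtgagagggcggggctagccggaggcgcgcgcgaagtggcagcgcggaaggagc
Ccnb2: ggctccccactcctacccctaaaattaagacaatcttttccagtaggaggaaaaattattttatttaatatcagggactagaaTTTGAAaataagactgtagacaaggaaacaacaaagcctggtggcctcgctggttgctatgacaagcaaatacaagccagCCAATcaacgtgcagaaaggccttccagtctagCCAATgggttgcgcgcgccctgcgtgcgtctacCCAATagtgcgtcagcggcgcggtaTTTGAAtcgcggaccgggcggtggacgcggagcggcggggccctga
The Cdk6 and Cdk4 windows held none of these words. The Mcm6 window held 3 E2F words, of which 2 on opposite strands overlap, and 2 CCAAT boxes, both on the opposite strand. The Ccnb2 window held 3 CCAAT boxes and 2 CHR words, 1 of them beginning at position 5 from the start.

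Over the list, E2F and CHR words were spread unevenly between replication and mitosis genes. Windows were found for 42 of the 50 genes, 44 in all. An E2F word lay in 7 of 16 windows of replication genes (43.8%), in 0 of 18 of mitosis genes, and in 2.26% of all 32851 windows of the same length. A CHR word lay in 3 of the 16 (18.8%) and 14 of the 18 (77.8%), against 19.2% of all windows. The CCAAT box was common to both, in 75.0% and 77.8%, against 37.4%. These are matches of letters in a window and not evidence of binding.

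Of the 17 genes of licensing, fork and nucleotide supply, 1 passed, and it was a licensing gene. Mcm6, a subunit of the MCM helicase, had a signal of 6237, 6104 and 5328 on the cerebellar arrays, against 4004, 4833 and 3796 on the neocortical arrays. The groups did not overlap, and the log2 difference was 0.49 ± 0.12 (SE, limma adjusted p = 0.0373), or 1.40-fold higher in cerebellar astrocytes. The other of its 2 kept probe sets had a log2 difference of 0.25 and overlapping groups (adjusted p = 0.455). Mcm7, another subunit, read 11551, 11330 and 11573 in cerebellar and 9208, 10675 and 8428 in neocortical astrocytes. Its log2 difference of 0.29 ± 0.10 (SE) did not pass (adjusted p = 0.107), although the groups did not overlap. Of its 4 kept probe sets, all positive at 0.15 to 0.44, only another one passed (3357, 3606 and 3241 against 2472, 2589 and 2460, adjusted p = 0.0328).

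Of the 6 subunits Mcm2 to Mcm7, 1 passed (16.7%), beside 12.7% of all genes in either direction. By their brightest probe sets 5 were positive, beside 6073 of all 12616 genes, and the median log2 difference was 0.22. Mcm5 had groups that did not overlap on both of its kept probe sets, with log2 differences of 0.36 and 0.37 (adjusted p = 0.1 and 0.113). Mcm3 (0.15) and Mcm4 (0.09) had smaller differences, and Mcm2 had -0.08 on its brightest probe set and 0.30 on the other. The kept probe sets of Mcm3 ran from -0.16 to 0.28 and those of Mcm4 from -0.12 to 0.09. With arrays scaled to the median, Mcm6 had a difference of 0.30 (adjusted p = 0.301), so its call depended on the scaling.

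**Figure D4:**
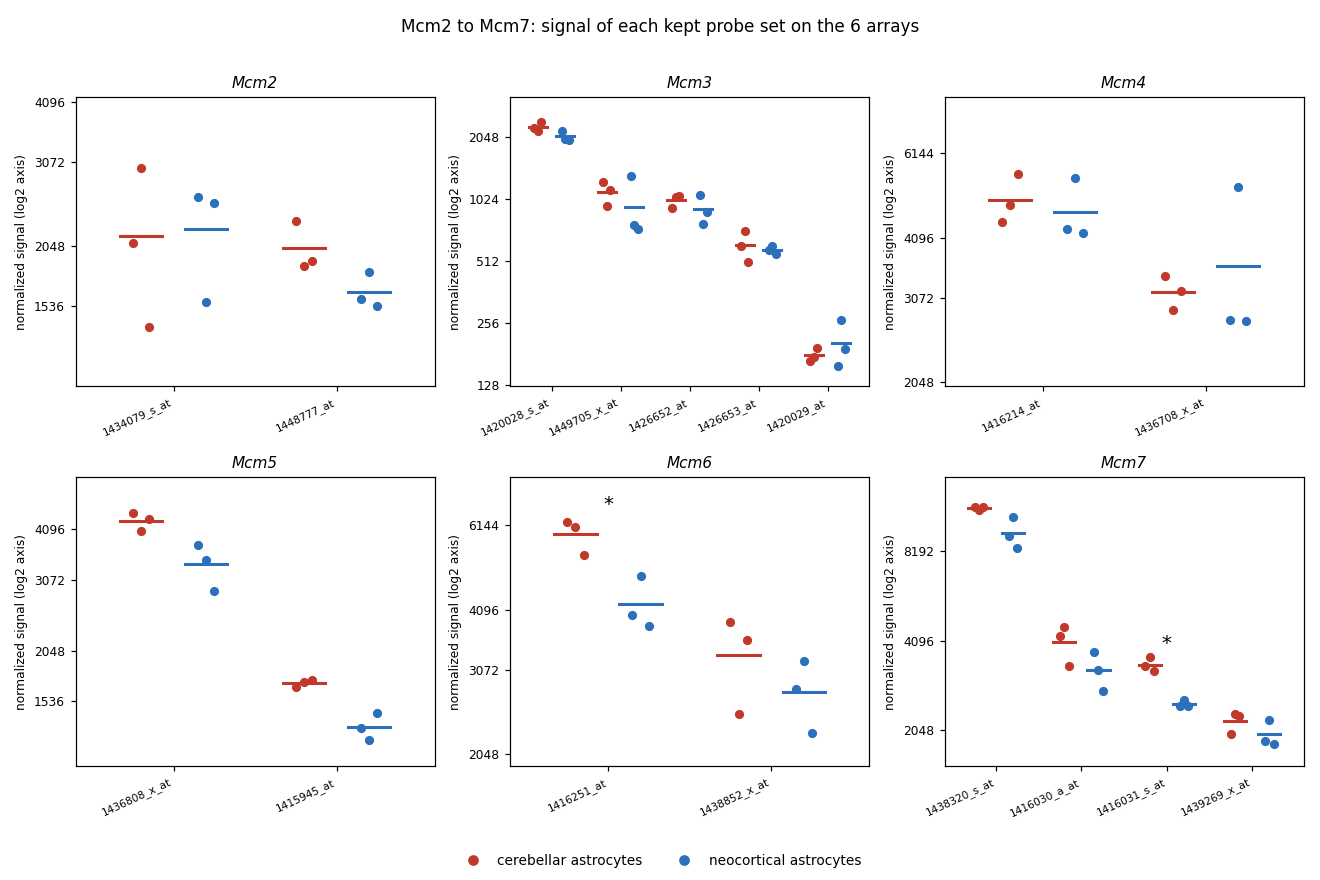
Signal of every kept probe set of the 6 MCM helicase subunit genes on each array, on a log2 axis. Points are arrays with replicates 1 to 3 from left to right, lines are group means, and an asterisk marks an adjusted p under 0.05. One probe set each of Mcm6 and Mcm7 passed, at 0.49 and 0.44 on the log2 scale, and both Mcm5 probe sets have all cerebellar arrays above all neocortical ones.

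The loaders of the helicase, their inhibitor and Cdc45 did not pass. Cdt1, which helps to load MCM rings, read 4410, 5405 and 4957 on cerebellar and 5865, 6342 and 5221 on neocortical arrays, with a log2 difference of -0.24 ± 0.12 (SE, adjusted p = 0.236). The groups overlapped. Gmnn (geminin), the inhibitor of Cdt1, had a log2 difference of -0.14, Cdc6, the other loader, 0.39, and Cdc45, a partner of the active helicase, 0.19, and none of these passed. Cdc6 had the widest bounds of the 3, from -0.12 to 0.90.

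At the replication fork no member passed in limma, with 2 of the 4 at an unadjusted p under 0.05. Over all genes 27.9% were under that value, and 9 of the 49 members. Pcna, the sliding clamp, read 35056, 38107 and 35185 on cerebellar arrays, against 39372, 37690 and 33656 on neocortical arrays. Its groups overlapped, and the 95% interval of its log2 difference, from -0.22 to 0.16, was the narrowest of the 4. In the polymerase alpha-primase complex, Prim1 and Pola1 are members. Prim1, the primase subunit, read 2936, 2539 and 2711 against 2217, 2175 and 2176, a log2 difference of 0.32 ± 0.11 (SE, adjusted p = 0.116), without overlap. Pola1, the catalytic polymerase subunit, had -0.31 ± 0.13 (SE, adjusted p = 0.153), also without overlap. The other subunits, Prim2 (0.18) and Pola2 (-0.0044), had overlapping groups. Rfc4, of the clamp loader, had -0.23 (adjusted p = 0.335), while its other kept probe set had 0.12.

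Genes that supply nucleotides also did not pass, with 1 of 3 at an unadjusted p under 0.05. Rrm2, the regulated subunit of ribonucleotide reductase, had a signal of 9884, 9385 and 9593 in cerebellar astrocytes, against 11182, 10802 and 10798 in neocortical astrocytes. On this probe set, which carries a suffix for possible cross-hybridisation, the groups were tight and did not overlap. The log2 difference was -0.18 ± 0.08 (SE, adjusted p = 0.182). All 3 kept probe sets of Rrm2 were negative, at -0.18 to -0.10, but the groups overlapped on the others. Rrm1, the large subunit, read 5945, 4681 and 3912 against 4949, 4468 and 4776, with a log2 difference of 0.01 and a cerebellar spread that covered all neocortical values. The other kept probe set of Rrm1 read 3887, 4436 and 4047 against 3225, 3397 and 3406, without overlap, at 0.30 ± 0.10 (SE, adjusted p = 0.102), so its probe sets differed in size. Tyms was the only member with group means inside the range of those 24 bacterial control probe sets, which reached 269.2. Its difference of 0.41 (adjusted p = 0.469) therefore rests on dim signal.

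Of the 2 transcription factors none passed in limma, and 0 had an unadjusted p under 0.05. E2f1, which switches on replication genes, read 464.7, 325.7 and 618.0 on cerebellar arrays, against 616.0, 409.9 and 643.0 on neocortical arrays, a log2 difference of -0.27 ± 0.30 (SE). Foxm1, which acts on mitosis genes, read 540.1, 501.0 and 864.7 against 641.2, 559.6 and 581.3, with 0.06 ± 0.24 (SE). Groups overlapped for both, and the 3 kept probe sets of Foxm1 ranged from -0.84 to 0.56, so its direction was not fixed.

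The kinase that drives mitosis and the most used marks of cycling cells did not pass either. Cdk1 read 6664, 7777 and 8287 on cerebellar arrays, against 9234, 8352 and 7986 on neocortical arrays, a log2 difference of -0.17 ± 0.11 (SE, adjusted p = 0.358). Mki67, the gene of the Ki-67 antigen, had a signal of 6074, 7437 and 7003 against 6312, 5419 and 7475, with a log2 difference of 0.10 and a 95% interval from -0.20 to 0.41. Top2a, the topoisomerase that untangles copied chromosomes, read 6454, 7664 and 8874 against 7465, 7860 and 7192, with 0.02 and an interval from -0.26 to 0.30. Groups overlapped for all 3 genes. For Mki67 and Top2a these intervals, of the brightest probe sets, exclude a 1.5-fold difference in either direction. The other kept probe set of Top2a did not pass and does not exclude it, at 0.31 with an interval from -0.25 to 0.87. The cyclins Ccna2 (0.09), Ccnb2 (-0.14), Ccne1 (0.22) and Ccne2 (0.02) and the kinase Cdk2 (0.15) did not pass, and their groups overlapped.

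**Figure D5:**
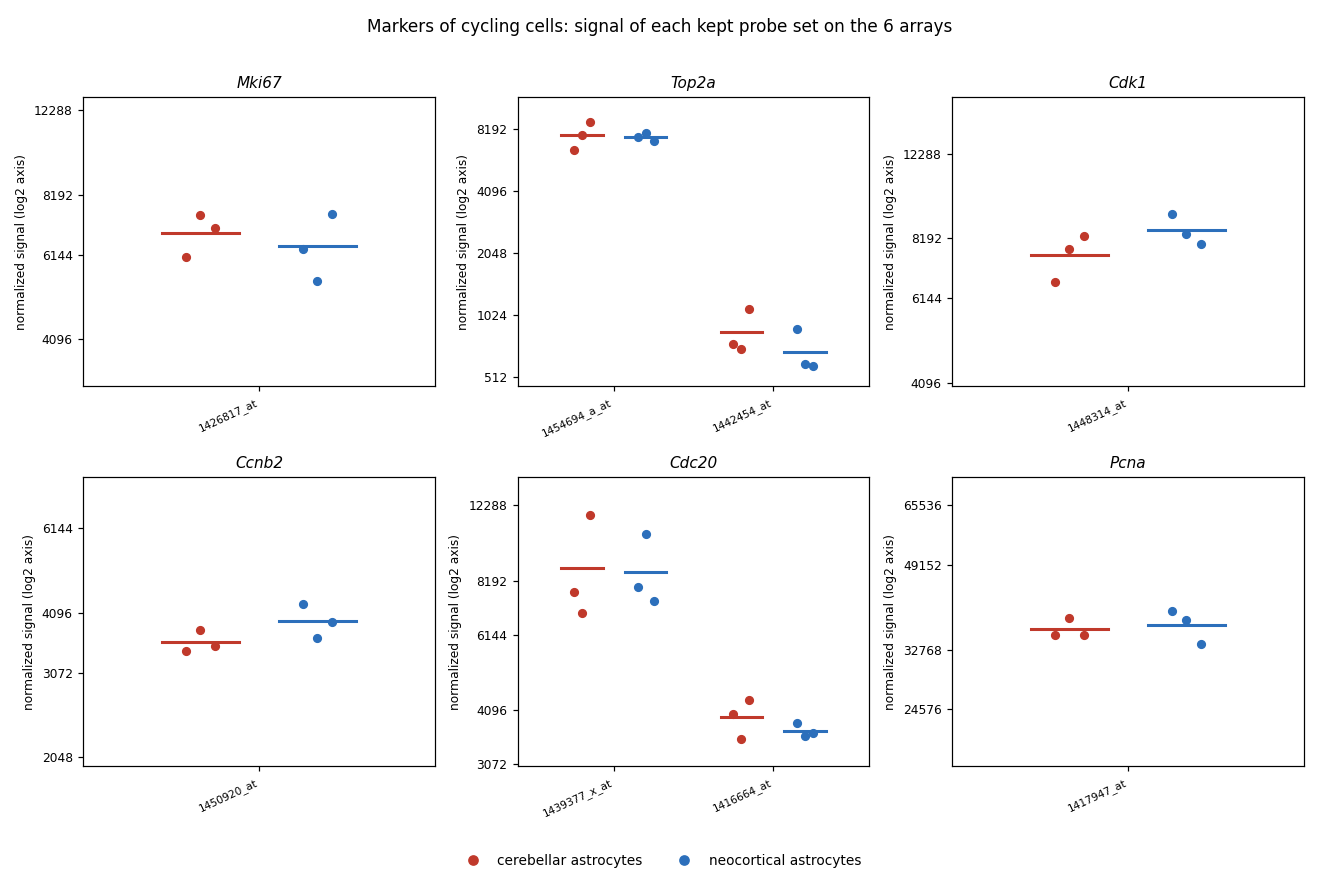
Signal of the kept probe sets of Mki67, Top2a, Cdk1, Ccnb2, Cdc20 and Pcna on each array, on a log2 axis. Points are arrays with replicates 1 to 3 from left to right and lines are group means. The groups overlap on the brightest probe set of each gene, whose log2 differences run from -0.17 (Cdk1) to 0.10 (Mki67).

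Of the 20 members that act in mitosis itself, none passed in limma, with 1 at an unadjusted p under 0.05. Their median log2 difference was -0.01, with 9 above 0 and 11 below. The spindle checkpoint and the anaphase-promoting complex, the ligase that ends mitosis, had small differences, with a median size of 0.03 over their 6 members, from -0.14 for Ube2c, the complex's ubiquitin-conjugating enzyme, to 0.13 for the checkpoint kinase Bub1. Mad2l1, a checkpoint protein, read 5394, 5209 and 5479 on cerebellar arrays, against 5993, 6054 and 4414 on neocortical arrays. Cdc20, the activator that the checkpoint restrains, read 7726, 6882 and 11665 against 7916, 10540 and 7342. Each group had 1 array of Cdc20 well above the other two, and the log2 difference was 0.01 ± 0.20 (SE). Bub1b had 0.04 and the kinase Ttk 0.00.

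Of the 4 mitotic kinases and chromosomal passenger genes none passed in limma, and 0 had an unadjusted p under 0.05 on the brightest probe set. Plk1, the polo-like kinase, read 1531, 1949 and 2194 in cerebellar astrocytes, against 1734, 1732 and 1961 in neocortical astrocytes, a log2 difference of 0.05. Birc5 (survivin), a passenger protein, read 2623, 2166 and 2845 against 2325, 2507 and 2208, with 0.11. Groups overlapped for both, as they did for Aurka (-0.18) and Aurkb (-0.12), the Aurora kinases of the spindle poles and of the passenger complex. The other kept probe set of Aurkb read 871.7, 963.4 and 957.8 against 1193, 1136 and 1525, without overlap, at -0.45 ± 0.17 (SE, adjusted p = 0.12).

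Among centromere and kinetochore genes, Cenpa, the histone variant that marks centromeres, was lower on every cerebellar array without passing. It read 1907, 1966 and 1850 in cerebellar astrocytes, against 2268, 2343 and 2221 in neocortical astrocytes, a log2 difference of -0.26 ± 0.11 (SE, adjusted p = 0.193). Cenpf, a late kinetochore protein, read 2279, 2383 and 2413 against 2554, 2024 and 2452 on its brightest probe set, with 0.02 and overlapping groups. Another probe set of Cenpf passed in the lower direction (266.3, 165.9 and 165.8 against 416.7, 419.4 and 609.2, log2 difference -1.29, adjusted p = 0.0327), with cerebellar values inside the range of the bacterial controls. Cenpe, the kinetochore motor, had -0.09.

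Spindle and cytokinesis genes spread to both sides. Nusap1, a spindle microtubule protein, read 3026, 3127 and 3557 in cerebellar astrocytes, against 3666, 3722 and 3568 in neocortical astrocytes, with a log2 difference of -0.18 (adjusted p = 0.342). Anln (anillin), of the contractile ring, read 5261, 4309 and 4035 against 5472, 4659 and 5890, with -0.24 (adjusted p = 0.304). Tpx2, a spindle assembly factor, had the largest difference of the group at 0.46 ± 0.18 (SE, adjusted p = 0.133) without overlap, but its other 3 kept probe sets were all negative, to -0.35. The motors Kif11 (-0.22), Kif20a (-0.11) and Kif23 (0.09) and the midzone protein Prc1 (0.07) did not pass.

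Probe sets of one gene did not always point the same way. Of 29 members with more than 1 kept probe set, 20 had the same sign on all of them and 9 did not. Over all 91 kept probe sets of the members, 3 passed as higher and 4 as lower, against 4.88% and 5.72% of all 27022, and 48 had a positive and 43 a negative difference. The 4 lower ones were the 3 of Cdk6 and 1 of Cenpf, and the 3 higher ones were 1 each of Cdk4, Mcm6 and Mcm7.

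The members' medians lay close together on the 6 arrays. Relative to the mean of the 6 arrays, the members' median was -0.04, 0.00 and 0.06 on cerebellar arrays 1 to 3, and 0.03, -0.06 and 0.00 on neocortical arrays 1 to 3, on the log2 scale. Cerebellar array 3 held the highest value for 17 of the 49 members, against 3 to 10 on the other arrays, and the lowest value for 8. The same count was not made over all genes, so it cannot be read as a trait of the members. Markers of fibroblasts and meninges, cells that also divide in culture, were summed at 61440, 132366 and 227059 on cerebellar arrays 1 to 3 and at 60470 to 100045 on neocortical arrays. Of those 9 markers, Twist1 was higher and none was lower, and their part in the members' values was not tested. Microglial sums, of 9 markers of which none passed (Csf1r, the receptor of their growth factor, had a log2 difference of 0.00), also varied within regions, at 6704 to 36800 against 11337 to 32360. The sums of astrocyte markers were 159244 to 229388 on cerebellar and 220365 to 267158 on neocortical arrays, and all 10, Gfap and Aqp4 among them, passed the filter in these samples, with 1 higher and 3 lower. Of 6 markers of cerebellar granule neuron precursors, a dividing cell type of the young cerebellum, Atoh1, Barhl1, Neurod1 and Cntn2 were too dim to pass the filter, while Mycn and Gli1 were kept and did not pass the test. For Gapdh, the 3′ control probe set over the 5′ one, which tracks how whole the RNA was, gave 0.913 to 1.07 on cerebellar and 0.865 to 0.883 on neocortical arrays (two-sided exact permutation p = 0.1, the smallest that 3 arrays against 3 allow). For beta-actin it was 1.42 to 1.62 against 1.35 to 1.44, with overlap (two-sided exact permutation p = 0.2), and the part of either in these values was not tested.

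A longer list held 120 other genes of the same processes. Of the 116 that were kept, 1 was higher and 5 were lower in cerebellar astrocytes, 0.862% and 4.31%, against 5.30% and 7.36% of all genes, and their median log2 difference was -0.04. Among fork and nucleotide genes, Pole, the catalytic subunit of polymerase epsilon, was 1.51-fold higher, at 1121, 1037 and 1087 against 685.2, 739.6 and 729.4 (limma adjusted p = 0.0407). With the replicate block Pole did not pass (adjusted p = 0.0612). Rpa1 and Rpa3, subunits of the complex that coats single-stranded DNA, were 1.31-fold lower each (adjusted p = 0.0141 and 0.0433). With the block Rpa3 did not pass (adjusted p = 0.0585), while Rpa1 did (0.013), and Rpa2, named after its value was seen, had -0.10 and did not pass. Among mitosis genes, 3 of 48 were lower and none was higher, 6.25% lower beside 7.36% of all genes. Ect2, the activator of the cytokinesis ring, read 3065, 1976 and 2615 against 4058, 4281 and 3683, or 1.59-fold lower (adjusted p = 0.0331). Pbk, a mitotic kinase, was 1.49-fold lower (adjusted p = 0.0106) and Cep55, of the final cut between daughter cells, 1.43-fold lower (adjusted p = 0.0203). Of the 48, 37 had a negative difference, beside 6538 of all 12616 genes. A total of 10 lay below neocortical arrays without overlap, 20.8%, against 18.3% of all genes. None of the 16 origin genes or the 27 other cell cycle regulators passed, with 3 and 4 at an unadjusted p under 0.05. With the replicate block the counts over the 116 were thus 0 higher and 4 lower. Scaled to a common median, 0 were higher and 13 lower. That scaling shifted the median of all genes to -0.14, and 366 of all 12614 genes were higher and 1254 lower with it. Leaving out any 1 array gave 0 higher in limma, while the lower count was 0 without neocortical array 1, 1 without neocortical array 2 or 3, 3 without cerebellar array 2 or 3 and 4 without cerebellar array 1.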

How the data were processed

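The values deposited by the authors are linear intensity, in a table of 45101 Affymetrix mouse probe sets by 6 arrays. How they were made was not given in the sources used here. Array means after trimming 2% at each end were all 1500, while medians ran from 284.5 to 361.2. Without controls, 45037 probe sets were left. Quantile normalization was followed by a floor at the 20th percentile (62.2) and log2. Those with a mean reaching the 40th percentile, 27022 in number, were tested in limma 3.58.1 (R 4.3.3; lmFit, eBayes with a variance trend, two-sided), after a run on simulated data. Intervals are 95% intervals of that fit. The number of arrays limits the precision.

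The platform annotation gave 1 symbol for 34945 probe sets, several for 932 and none for 9160. Symbols were updated by Entrez ID in GRCm38.p6 tables for 34741. Gene coordinates are not given, because the build of the probe sets is not stated.

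The array numbers come from the sample titles. Taking each array's departure from its group mean, pairs 1, 2 and 3 had correlations of 0.18, 0.188 and 0.101. Pairs of unlike number had -0.182 to 0.0225. These correlations are weak and the titles state no pairing, so whether the numbers pair the arrays was not established. The main fit had no replicate block, and the blocked value is given for each named gene whose call it changed.

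Members and lists were chosen with earlier results of these data known. Values on each array are given for members past the threshold and the 2 brightest of each role group, and up to 4 called genes are named per group of the longer list. Brightness also decided which probe sets were tested and which kept probe set represented each gene. Ccnb2 and the other members without array values are named outside that rule. A total of 16 alternatives were run.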

Additional observations from a re-analysis of the deposited data

How the results depend on the processing

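The members' median log2 difference stayed between -0.12 and 0.04 over all 16 alternatives, and moved with the median of all genes when arrays were scaled to a common median (-0.12 beside -0.14). Cdk6 was lower with an adjusted p under 0.05 under 15 of 16 alternatives and did not pass with no filter on dim probe sets (0.0721). Mcm6 passed under 8 and Cdk4 under 4. Cdk4 did not pass without cerebellar replicate 1 (0.0826) or 2 (0.101) or without neocortical replicate 1 (0.129), 2 (0.138) or 3 (0.107), nor Mcm6 without cerebellar replicate 1 (0.0776) or 2 (0.0863) or neocortical replicate 1 (0.131) or 3 (0.142). The count of members higher in cerebellar astrocytes, 2 in the main setting, was 1 with the values as deposited, with the replicate block, without suffixed probe sets and with probe sets averaged per gene (there Mcm5, not Mcm6 or Cdk4), and 0 with median scaling and without a variance trend. With no filter, 0 were higher and 0 lower in limma, with 9 at an unadjusted p under 0.05. Leaving out 1 replicate gave 0 to 2 higher and 1 lower.

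The longer list had 0 higher with the replicate block, with median scaling and without suffixed probe sets. Its lower count of 5 became 13 with median scaling, 2 with no filter and without suffixed probe sets, 1 without a variance trend and 8 with probe sets averaged per gene. Leaving out 1 replicate gave 0 higher and 0 to 4 lower. Over all probe sets, 1319 were higher and 1545 lower. The counts were 819 and 2105 with median scaling, 577 and 704 with no filter, 676 and 914 without a variance trend, and 548 to 1233 and 665 to 1542 with 1 replicate left out. The replicate block changed no call of a named gene other than Cdk4, Pole and Rpa3.

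Of 22 named members, 19 passed under no alternative and 12 kept their sign throughout. No value of opposite sign passed. Signs turned with the values as deposited for Pcna (0.0047), Rrm1 (-0.0094), Cdc20 (-0.0435) and Top2a (-0.0194), and with median scaling for Rrm1 (-0.18), Cdc20 (-0.21), Plk1 (-0.0701), Birc5 (-0.038), Cenpf (-0.12), Mki67 (-0.10) and Top2a (-0.19). That scaling itself moved the median of all genes to -0.14, and relative to the median Plk1, Birc5, Cenpf and Mki67 kept their sign, while Rrm1 (-0.0317), Cdc20 (-0.0659) and Top2a (-0.0418) did not. With probe sets averaged per gene they turned for Foxm1 (-0.0752) and Cenpf (-0.45). With 1 replicate left out the log2 differences ranged from -0.0941 to 0.019 for Pcna, -0.14 to 0.16 for Rrm1, -0.19 to 0.20 for Foxm1, -0.17 to 0.0595 for Mad2l1, -0.22 to 0.16 for Cdc20, -0.0641 to 0.20 for Plk1, -0.0861 to 0.0817 for Cenpf, -0.0117 to 0.22 for Mki67 and -0.0929 to 0.14 for Top2a. The cause of the other shifts was not tested.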
